A study of Mus musculus with 6 samples.

Results

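The 10 genes described here belong to transforming growth factor beta (TGF-beta) signalling and were measured in 4T1, a cell line from a mammary tumour of the mouse that spreads to other organs when implanted. They comprise the ligands Tgfb1, Tgfb2 and Tgfb3, the receptors Tgfbr1, Tgfbr2 and Tgfbr3, and 4 genes that TGF-beta induces or that act back on its signal, Pmepa1, Skil, Tgfbi and Tgif1. Every probe set of the Affymetrix array whose annotation gave exactly 1 of these symbols was kept, which gave 25 of 45037 probe sets, and the 10 genes are among 18193 genes measured. Members had from 1 to 4 probe sets, and some probe sets of a gene were designed on the same sequence record, so they are not independent readings of it. The rule took them by name and used no value of this comparison, but the members were chosen with earlier results of these data known.

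The study compared 4T1 cells transduced with a vector expressing an shRNA against NFAT1 with 4T1 cells transduced with a control shRNA vector. NFAT1, the product of the gene Nfatc2, is a calcium-regulated transcription factor that calcineurin sends to the nucleus. Cells of both groups had been selected for 10 days in culture before collection, and each of the 3 arrays per group took 200 ng of total RNA. Whether these arrays stand for independent cultures, or the selected cells for clones, is not stated in the labels. The p-values thus set group differences against the scatter of these samples only, and that scatter may be technical. Values are log2 signals made by RMA, in which 1 unit is a doubling, and differences are NFAT1 shRNA minus control.

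TGF-beta ligands are secreted in a latent form and must be released before they act. The free ligand binds Tgfbr2, a kinase receptor that then phosphorylates and activates Tgfbr1, while Tgfbr3 (betaglycan) is a co-receptor that presents ligand, Tgfb2 above all. Tgfbr1 phosphorylates Smad2 and Smad3, which enter the nucleus with Smad4 and switch on target genes, several of which damp the signal again. In mammary carcinoma cells the pathway is known both for slowing growth and for promoting invasion and metastasis.

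The arrays were not equally far apart, which touches all results below. Of the 157 genes whose 3 control arrays spanned at least 1 log2 unit with a signal of at least 7, control 3 lay between controls 1 and 2 in 157. It also lay in the middle for 8 of the 10 members on their brightest probe set, against 54.5% of all genes. Over all probe sets, the correlation of NFAT1 shRNA 1 was 0.986 with NFAT1 shRNA 2 and 0.985 with NFAT1 shRNA 3, against 0.991 to 0.995 with the 3 controls. Nfatc2 itself had 6 probe sets, of which 4 had a lower and 2 a higher mean with the shRNA. On 1439205_at the NFAT1 shRNA arrays read 5.15, 5.43 and 5.29, against 6.05, 6.18 and 5.91 on the control arrays (limma adjusted p = 0.0707). On 1426032_at they read 6.19, 6.48 and 6.09, against 5.92, 5.92 and 5.86 (limma adjusted p = 0.251). No Nfatc2 probe set passed the limma test, and 3 had an unadjusted p under 0.05. With array weights 1439205_at passed (-0.63, limma adjusted p = 0.0320), and also without NFAT1 shRNA 1 (-0.69, limma adjusted p = 0.0160). The arrays are named here by their labels. Of 8 epithelial markers 7 had a mean above the array medians of 5.42 to 5.48, such as Epcam at 12.43 in NFAT1 shRNA cells and 12.22 in controls, and 0 passed. The basal keratin gene Krt14 was an epithelial marker with a large difference, at 8.41 in NFAT1 shRNA cells and 10.54 in controls (-2.12, limma adjusted p = 0.123). The other epithelial marker with an unadjusted p under 0.05 was Krt18, at 13.09 in NFAT1 shRNA cells and 12.82 in controls. The log2 summed signal of the epithelial list was 15.09 to 15.22 on NFAT1 shRNA arrays and 15.11 to 15.14 on controls. The leukocyte list, with 3 of 7 markers above the array medians, summed to 8.52 to 9.82 on NFAT1 shRNA arrays and 8.97 to 9.30 on controls. Its Cd68 read 7.30 in NFAT1 shRNA cells and 6.54 in controls, and its defining marker Ptprc 2.96 in NFAT1 shRNA cells and 2.95 in controls. Csf1r, the brightest of the list, went the other way from Cd68, at 8.09 in NFAT1 shRNA cells and 8.26 in controls. On the NFAT1 shRNA arrays Csf1r read 6.99, 9.01 and 8.26. Laptm5 read 6.06 in NFAT1 shRNA cells and 6.01 in controls. The endothelial list, with 1 of 6 above the medians, summed to 6.80 to 7.03 on NFAT1 shRNA arrays and 6.70 to 6.78 on controls. Kdr (5.96 in NFAT1 shRNA cells, 5.66 in controls) and Emcn (2.71 in NFAT1 shRNA cells, 2.44 in controls) had an unadjusted p under 0.05, while Pecam1 read 3.37 in NFAT1 shRNA cells and 3.34 in controls. The fibroblast list, with 1 of 8 above the medians, summed to 8.13 to 8.98 on NFAT1 shRNA arrays and 7.84 to 8.60 on controls. That marker, Pdgfra, read 7.71 in NFAT1 shRNA cells and 7.23 in controls. The part of these markers in the results was not tested.

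No member passed the test between NFAT1 shRNA and control cells. In such bulk RNA, fewer cells of a kind and less RNA per cell cannot be told apart. With limma over all 45037 probe sets, 0 of the 25 member probe sets had an adjusted p under 0.05, against 0.200% of all probe sets, and their adjusted p-values ran from 0.182 to 0.977. An unadjusted p under 0.05 was found for 4 of the 25 (16.0%), against 15.7% of all probe sets. These were 2 probe sets of Pmepa1, which were lower in NFAT1 shRNA cells, and those of Tgif1 and Tgfb3, which were higher. The groups did not overlap on 4 of the 25, also 16.0%, against 20.9% of all probe sets. Both shares lie near or below those of the whole array, so the members did not stand out by number. The mean was lower in NFAT1 shRNA cells for 18 probe sets and higher for 7, with a median difference of -0.09 against 0.02 over all probe sets. Signals were at least 5 on 3 or more arrays for 19 of the 25 probe sets and at least 6 for 13, and differences of the dimmer ones are compressed. The single-value exact permutation test (2-sided) gave 0.1 where groups did not overlap, the smallest p that 3 arrays against 3 allow.

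**Figure D1:**
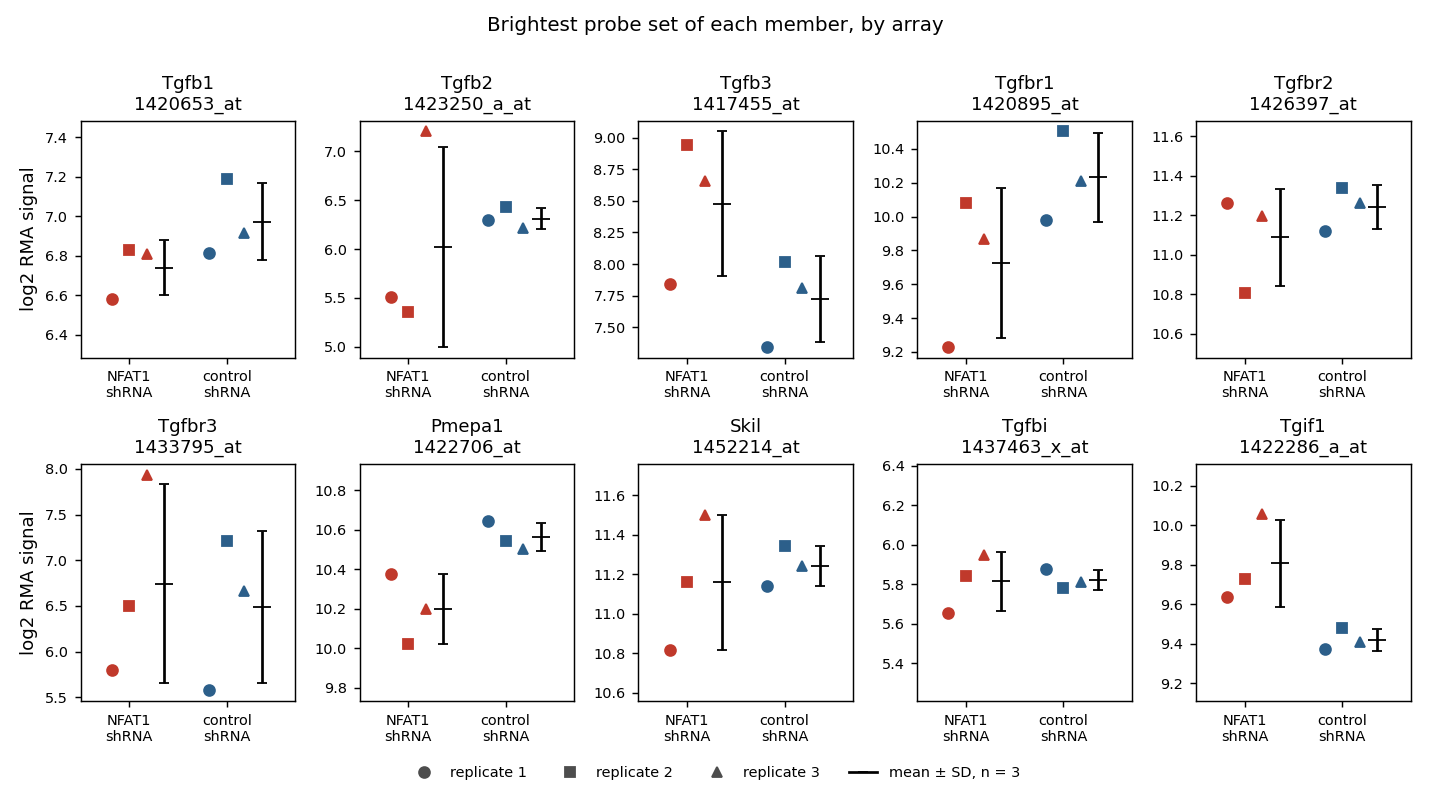
Log2 RMA signal of the brightest probe set of each of the 10 members on the 3 NFAT1 shRNA arrays (red, left) and the 3 control shRNA arrays (blue, right); symbols mark the replicate number, and bars show the mean ± SD (n = 3). The 3 NFAT1 shRNA arrays lie below the controls for Pmepa1 and above them for Tgif1, while Tgfb2 and Tgfbr3 spread widely in NFAT1 shRNA cells.

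Among the ligands, Tgfb3 had the largest difference of all members. Its one probe set, 1417455_at, read 7.84, 8.94 and 8.66 on the NFAT1 shRNA arrays, against 7.34, 8.01 and 7.81 on the control arrays. NFAT1 shRNA 2 and 3 lay above every control, whereas NFAT1 shRNA 1 lay within the control range, so the groups overlapped. The mean was 8.48 ± 0.57 in NFAT1 shRNA cells and 7.72 ± 0.34 in controls (SD, n = 3 each), a difference of 0.76 ± 0.30 (SE) or 1.69-fold, with a limma adjusted p of 0.310. Without NFAT1 shRNA 1 the difference was 1.08 and passed with limma (adjusted p = 0.0236). In that setting 3 of the 25 member probe sets passed (12.0%), against 12.9% of all probe sets. When any other single array was left out, 0 member probe sets passed. Without any 1 control array, or without NFAT1 shRNA 2, 0 of all probe sets passed.

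Tgfb1 encodes the ligand most studied in carcinoma cells. On 1420653_at it read 6.58, 6.83 and 6.81 on the NFAT1 shRNA arrays, against 6.81, 7.19 and 6.91 on the control arrays. NFAT1 shRNA 1 was the lowest array, and the other 2 lay near the lowest control. The difference was -0.23 ± 0.13 (SE), with a 95% interval of -0.54 to 0.07 and a limma adjusted p of 0.407. The dimmer probe set 1445360_at went the other way, with a difference of 0.08 (limma adjusted p = 0.686), and its arrays all lay between 5.80 and 6.03.

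Tgfb2 split the NFAT1 shRNA arrays. On its brightest probe set, 1423250_a_at, the NFAT1 shRNA arrays read 5.51, 5.36 and 7.21, against 6.29, 6.43 and 6.22 on the control arrays. NFAT1 shRNA 1 and 2 thus lay below every control and NFAT1 shRNA 3 above every control, and this order held on 4 of the 4 Tgfb2 probe sets. On 1450923_at the NFAT1 shRNA arrays read 5.09, 4.68 and 6.77, against 5.66, 5.80 and 5.83 on the control arrays. The probe sets 1450922_a_at and 1438303_at were dimmer and spanned 1.65 and 0.88 log2 units over the NFAT1 shRNA arrays, against 0.51 and 0.09 over the controls. Of the 4 probe sets, 3 were designed on the same sequence record. The mean differences of the 4, from -0.38 to -0.08, described no array, and their limma adjusted p-values ran from 0.685 to 0.869. On 1423250_a_at the 95% interval of the difference was -1.39 to 0.82. The range of 1.85 over the NFAT1 shRNA arrays on 1423250_a_at was reached by 0.706% of all probe sets, while 48.4% had a control range at least as wide as its 0.21. At the level of genes, 343 of 18193 (1.89%) had NFAT1 shRNA 3 above and NFAT1 shRNA 1 and 2 below every control.

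RefSeq promoter windows, from 250 bases before to 50 after a start on GRCm38.p6, were at hand for 6 of the 10 members, with 11 windows in all because Tgif1 and Tgfbr1 have several starts. Those of Tgfb2 and of the most upstream Tgif1 start are shown because they belong to the ligand that split the arrays and to the member that was higher on every NFAT1 shRNA array. They are written 5′ to 3′ on the gene's strand, with the NFAT core GGAAA and the SMAD box CAGAC in capitals on either strand (TTTCC and GTCTG on the other strand), and these 2 motifs did not overlap in either window.
Tgfb2, chr1:186705940-186706239, minus strand: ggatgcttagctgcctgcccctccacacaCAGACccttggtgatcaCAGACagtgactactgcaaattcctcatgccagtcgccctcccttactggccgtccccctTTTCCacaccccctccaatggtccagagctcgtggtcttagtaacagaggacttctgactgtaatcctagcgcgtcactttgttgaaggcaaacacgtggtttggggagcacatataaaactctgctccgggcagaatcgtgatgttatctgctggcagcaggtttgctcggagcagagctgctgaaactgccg
Tgif1, chr17:70853483-70853782, minus strand: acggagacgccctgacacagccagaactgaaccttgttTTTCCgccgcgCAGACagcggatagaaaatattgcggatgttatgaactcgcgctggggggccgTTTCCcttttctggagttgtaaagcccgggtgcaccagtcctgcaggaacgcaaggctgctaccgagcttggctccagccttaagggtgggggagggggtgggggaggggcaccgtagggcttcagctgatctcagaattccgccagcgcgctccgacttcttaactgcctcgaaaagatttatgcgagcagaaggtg
The Tgfb2 window held 1 GGAAA and 2 CAGAC, and the Tgif1 window 2 GGAAA and 1 CAGAC. The windows of the other Tgif1 starts held fewer GGAAA, 1 or 0. Such short motifs are common: of 32851 mouse promoter windows of the same length, 61.3% held GGAAA and 49.6% held CAGAC on either strand. Among the 11 windows of the members, 4 held GGAAA and 7 held CAGAC. The Tgfb1 window held neither, and instead held 6 copies of the GC box GGGCGG, counted on both strands, which was present in 35.7% of all windows. The AP-1 site TGACTCA, in either orientation, was in 0 of the 11 windows and in 5.20% of all windows. These matches describe the letters of these windows, and binding was not measured.

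None of the receptors passed the test. Tgfbr1, the receptor that phosphorylates the Smads, was read well by 1 of its 3 probe sets, 1420895_at, at 9.23, 10.08 and 9.87 on the NFAT1 shRNA arrays, against 9.98, 10.50 and 10.21 on the control arrays. NFAT1 shRNA 1 and 3 lay below every control and NFAT1 shRNA 2 lay within their range. The difference was -0.51 ± 0.24 (SE), to a level 70.4% of control, with a 95% interval of -1.08 to 0.06 and a limma adjusted p of 0.356. Without NFAT1 shRNA 1 it was -0.26 (limma adjusted p = 0.387). The other Tgfbr1 probe sets had mean signals from 3.27 to 3.99 in both groups, below the array medians, and differed by -0.06 and 0.07.

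Tgfbr2, the ligand-binding kinase, was bright on 1426397_at, with 11.26, 10.81 and 11.20 on the NFAT1 shRNA arrays, against 11.12, 11.34 and 11.26 on the control arrays. NFAT1 shRNA 2 was the lowest array there and also on 1425444_a_at (6.30, 5.87 and 6.22, against 6.16, 6.53 and 6.41 on the control arrays). The differences were -0.15 ± 0.14 and -0.23 ± 0.15 (SE), with limma adjusted p-values of 0.612 and 0.469. The 95% interval on 1426397_at, -0.48 to 0.18, lay on both sides of 0.

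Tgfbr3, the co-receptor betaglycan, varied more between arrays of one group than between groups. On 1433795_at it read 5.79, 6.50 and 7.94 on the NFAT1 shRNA arrays, against 5.58, 7.21 and 6.66 on the control arrays. NFAT1 shRNA 3 was the highest array and control 1 the lowest. The range was 2.14 within NFAT1 shRNA cells and 1.63 within controls, which 0.364% and 0.184% of all probe sets reached. The difference of 0.26 ± 0.61 (SE) had a 95% interval of -1.20 to 1.72 and a limma adjusted p of 0.858, and it turned to -0.34 without NFAT1 shRNA 3 and to -0.19 without control 1. The second probe set, 1425620_at, lay at 3.84 ± 0.11 in NFAT1 shRNA cells and 3.62 ± 0.09 in controls (SD, n = 3 each), below the array medians.

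**Figure D2:**
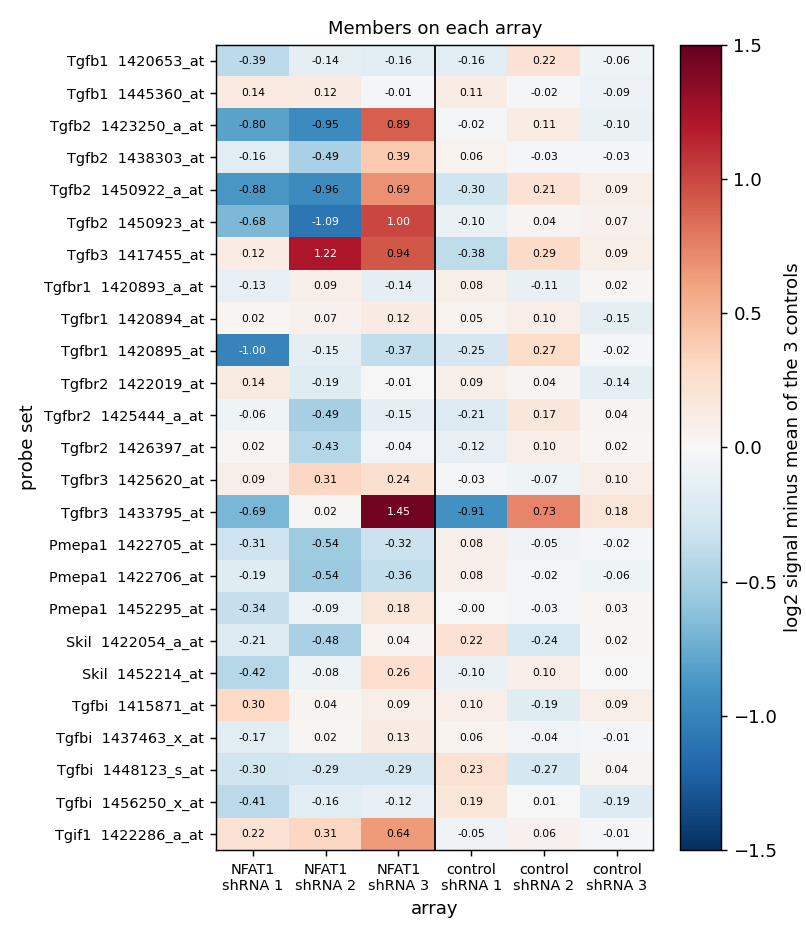
Log2 signal minus the mean of the 3 control arrays, for all 25 member probe sets (down) on each array (across, NFAT1 shRNA left of the line, control shRNA right); red is above and blue below the control mean. The Tgfb2 probe sets were blue on NFAT1 shRNA 1 and 2 and red on NFAT1 shRNA 3, with 0.89 on the brightest, and Tgfbr3 reached 1.45 on NFAT1 shRNA 3.

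Pmepa1 encodes a membrane protein that TGF-beta induces and that holds back Smad2 and Smad3, a negative feedback. On its brightest probe set, 1422706_at, the NFAT1 shRNA arrays read 10.38, 10.02 and 10.20, against 10.64, 10.54 and 10.50 on the control arrays. On 1422705_at, designed on the same sequence record, they read 9.00, 8.77 and 8.98, against 9.39, 9.25 and 9.28. All NFAT1 shRNA arrays lay below all controls on both. The differences were -0.36 ± 0.11 and -0.39 ± 0.10 (SE), or 77.7% and 76.3% of control, with limma adjusted p-values of 0.235 and 0.182. The third probe set, 1452295_at, did not share this difference, with 6.84, 7.09 and 7.37 on the NFAT1 shRNA arrays, against 7.18, 7.16 and 7.22 on the control arrays (difference -0.09, limma adjusted p = 0.783). Without NFAT1 shRNA 1 both brighter probe sets passed with limma (-0.45 with adjusted p = 0.0368, and -0.43 with adjusted p = 0.0467). With array weights 1422705_at passed (-0.42, limma adjusted p = 0.0472), 1 of 25 member probe sets against 5.06% of all.

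Tgif1 encodes a homeodomain repressor that binds Smad2 and Smad3 and limits their targets. Its probe set 1422286_a_at read 9.64, 9.73 and 10.06 on the NFAT1 shRNA arrays, against 9.37, 9.48 and 9.41 on the control arrays. Every NFAT1 shRNA array lay above every control. The mean was 9.81 ± 0.22 in NFAT1 shRNA cells and 9.42 ± 0.06 in controls (SD, n = 3 each), a difference of 0.39 ± 0.12 (SE) or 1.31-fold. Over all probe sets its limma adjusted p was 0.246 and ran from 0.0533 to 0.568 over the other settings tried. Adjusted over genes, Tgif1 passed with limma with array weights (0.42, adjusted p = 0.0289) and without NFAT1 shRNA 1 (0.47, adjusted p = 0.0411). Pmepa1 (adjusted p = 0.0332 and 0.0271) and Tgfb3 (0.0329 and 0.0182) also passed over genes with limma in these 2 settings. Of all genes, 18.6% passed with array weights and 18.4% without NFAT1 shRNA 1. Pmepa1 and Tgif1, both brakes on the Smads, thus differed in opposite directions, and neither passed with all 6 arrays at equal weight.

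Skil encodes SnoN, a Smad co-repressor that the pathway first degrades and then induces again. On 1452214_at it read 10.82, 11.16 and 11.50 on the NFAT1 shRNA arrays, against 11.14, 11.34 and 11.24 on the control arrays. NFAT1 shRNA 1 was the lowest array and NFAT1 shRNA 3 the highest, so the mean difference of -0.08 ± 0.17 (SE, limma adjusted p = 0.840) joined arrays that lay on both sides of the controls. The dimmer 1422054_a_at differed by -0.22 (limma adjusted p = 0.549).

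Tgfbi encodes a secreted matrix protein that binds integrins and is named for its induction by TGF-beta. Its 4 probe sets read from 3.90 to 5.95 over all arrays, around or below the array medians. On 1448123_s_at the NFAT1 shRNA arrays read 5.38, 5.38 and 5.39, against 5.91, 5.41 and 5.72 on the control arrays. The groups did not overlap there, by a margin of control 2 only, and the difference was -0.29 ± 0.13 (SE, limma adjusted p = 0.343). The brightest probe set, 1437463_x_at, differed by -0.01 with a 95% interval of -0.25 to 0.23 (limma adjusted p = 0.977), and the remaining 2 by 0.14 and -0.23.

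**Figure D3:**
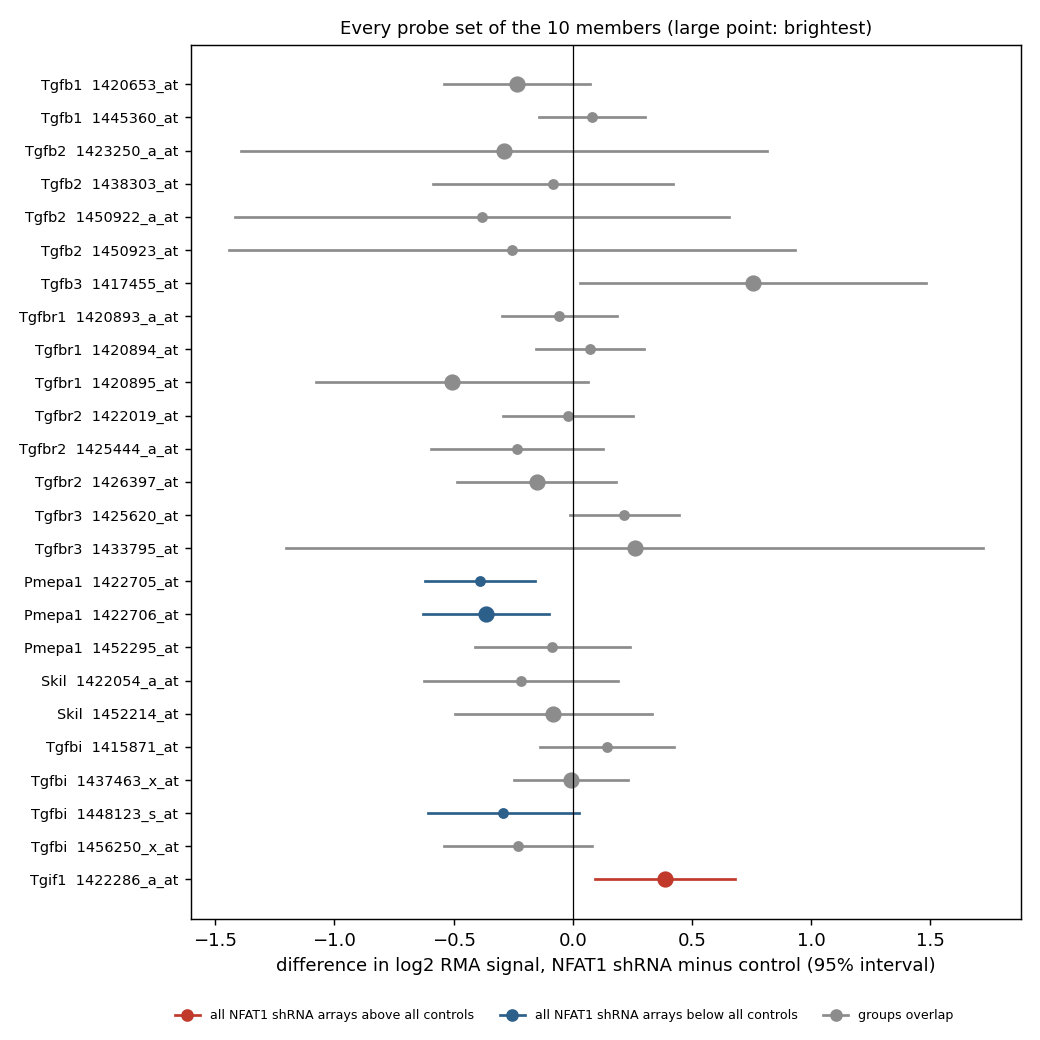
Difference in log2 RMA signal, NFAT1 shRNA minus control shRNA, for each of the 25 member probe sets, with unadjusted 95% limma intervals; large points mark the brightest probe set of a gene, and colour shows whether the groups overlapped. The intervals of Tgfb2 and Tgfbr3 are the widest, and those of Tgfb3, Tgif1 and 2 Pmepa1 probe sets lie on 1 side of 0.

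Read by array, the 10 members lay differently in the 3 NFAT1 shRNA samples. On their brightest probe sets, NFAT1 shRNA 1 lay below every control for 6 members and above every control for 1, against 24.0% and 37.1% of all genes. NFAT1 shRNA 3 lay below every control for 3 and above for 6, against 28.6% and 39.8% of all genes. NFAT1 shRNA 2 lay below for 3 and above for 2, against 31.4% and 41.9% of all genes. The median of the 10 members against the control mean was -0.29, -0.11 and 0.19 on NFAT1 shRNA 1, 2 and 3, and -0.11, 0.11 and -0.01 on controls 1, 2 and 3. The part that differences between arrays of a group have in the results was not tested.

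The 3 members with the widest range over the arrays were compared with other genes, predicted genes skipped. These genes had at least 0.5 times the range of the member and a higher group mean of at least 6. The measure was the root mean square gap between profiles centred on their own means over the 6 arrays. Nearest to Tgfb3 among 2968 genes with at least 0.5 times its range lay the ankyrin gene Ank3 (gap 0.05 log2 units), Arhgef25 (0.07), Phf1 (0.08) and Ctsa (0.08). Nearest to Tgfb2 lay Stbd1 (0.10), the caveolar coat gene Cavin2 (0.14), the transcription factor gene Cebpd (0.17) and Pfkfb3 (0.20), a regulator of glycolysis. Stbd1 read 7.47, 7.59 and 9.30 on the NFAT1 shRNA arrays, against 8.27, 8.36 and 8.22 on the control arrays. It had the same split as Tgfb2, the likeness for which it was picked. Nearest to Tgfbr3 lay the chemokine gene Ccl20 (0.18), Lgals9 (0.22), Tmem176a (0.23) and Ly6e (0.26). Ccl20 read 6.31, 7.29 and 8.49 on the NFAT1 shRNA arrays, against 6.62, 7.84 and 7.40 on the control arrays. The gaps describe these 6 arrays only.

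Around the members, 74 further pathway genes were listed by role, and 69 were measured. With limma over 18193 genes, reading 1 probe set a gene, 0 of the 69 passed in either direction, against 0.511% of all genes. An unadjusted p under 0.05 was found for 15 (21.7%), 4 higher and 11 lower, against 17.1% of all genes. The groups did not overlap for 20 (29.0%), against 22.8% of all genes. The median difference of the 69 was 0.02, against 0.04 over all genes. Without NFAT1 shRNA 1, 15 of the 69 passed (21.7%), against 18.4% of all genes, and with array weights 18 (26.1%), against 18.6%.

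**Figure D4:**
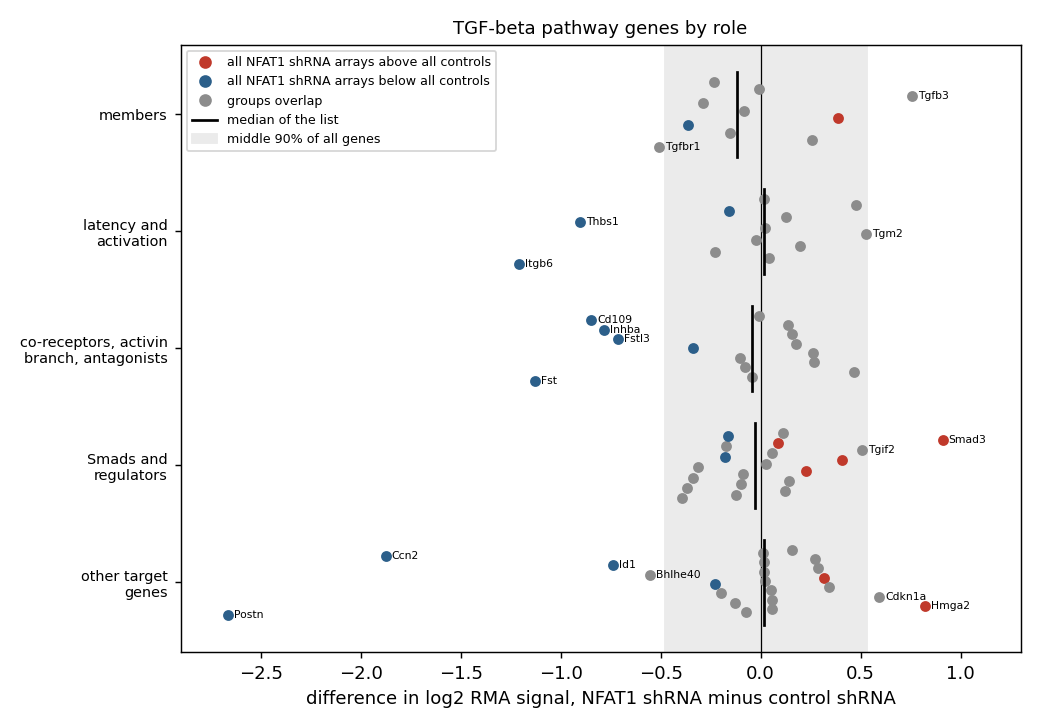
Difference in log2 RMA signal, NFAT1 shRNA minus control shRNA, for the 10 members and for the 4 lists of pathway genes (1 point a gene, spread vertically for legibility), with the median of each list as a bar and the middle 90% of all genes, -0.48 to 0.53, shaded. All list medians lie near 0, and genes beyond 0.5 are named, with Postn at -2.66 and Smad3 at 0.91.

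Of 12 measured genes for latency and activation of the ligands, 0 passed, 2 were lower and 0 higher with an unadjusted p under 0.05 (16.7%, against 17.1% of all genes), and the median difference was 0.02. Over all 18193 genes 1840 were higher and 1275 lower at that threshold. Thbs1 encodes thrombospondin, which can release TGF-beta from its latent complex. It read 9.49, 9.19 and 10.35 on the NFAT1 shRNA arrays, against 10.54, 10.62 and 10.57 on the control arrays. NFAT1 shRNA 3 was close to the controls, and the difference was -0.90 ± 0.28 (SE, limma adjusted p = 0.217). It passed without NFAT1 shRNA 3 (-1.24, limma adjusted p = 0.0370), where 0.363% of all genes and 2 of the 69 pathway genes passed. Thbs1 also passed with array weights (-0.95, limma adjusted p = 0.0298). Itgb6, named after its values were seen, encodes the beta chain of an integrin that frees latent TGF-beta in epithelia. Its signal was 3.93 ± 0.36 in NFAT1 shRNA cells and 5.14 ± 0.19 in controls (SD, n = 3 each), below the array medians, a difference of -1.21 ± 0.20 (SE, limma adjusted p = 0.0698). It passed with array weights (-1.24, limma adjusted p = 0.00939) and without NFAT1 shRNA 1 (-1.26, limma adjusted p = 0.0139). Its partner Itgav differed by -0.16 (limma adjusted p = 0.373). The latent binding proteins differed by -0.23 for Ltbp2, 0.20 for Ltbp4 and 0.48 for Ltbp3 (limma adjusted p from 0.361 to 0.761), and the transglutaminase gene Tgm2 by 0.53 (limma adjusted p = 0.688). Tgm2 read 8.69 on NFAT1 shRNA 1, against 10.88 and 11.07 on NFAT1 shRNA 2 and 3, and 1.29 was its difference without NFAT1 shRNA 1 (limma adjusted p = 0.0327).

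Of 15 genes for co-receptors, the related activin branch and extracellular antagonists, 0 passed, while an unadjusted p under 0.05 was found for 1 higher and 5 lower gene means (40.0%, against 17.1% of all genes). The median difference was -0.04. Inhba, which encodes the activin A subunit, read 10.46, 9.75 and 9.95 on the NFAT1 shRNA arrays, against 11.04, 10.61 and 10.85 on the control arrays. All NFAT1 shRNA arrays were below all controls, and the difference was -0.78 ± 0.20 (SE, limma adjusted p = 0.171). With the mean of all Inhba probe sets it was -0.31 (limma adjusted p = 0.283). The activin-binding antagonist gene Fstl3 differed by -0.71 (limma adjusted p = 0.122), and Fst, of the same kind but named after its values were seen and dim, by -1.13 (limma adjusted p = 0.161). Cd109, a surface protein that binds TGF-beta and inhibits its signalling, was at 6.22 ± 0.23 in NFAT1 shRNA cells and 7.07 ± 0.18 in controls (SD, n = 3 each; difference -0.85, limma adjusted p = 0.0801). On the higher side, the activin receptor gene Acvr2b differed by 0.47 (limma adjusted p = 0.275), the TGF-beta trap gene Vasn by 0.27 and the activin receptor gene Acvr1b by 0.16. Inhba, Fst, Fstl3, Cd109 and Acvr2b passed with limma without NFAT1 shRNA 1 (adjusted p from 0.00711 to 0.0259). So did the activin receptor gene Acvr2a, named after its values were seen, which was lower with all arrays (-0.34, limma adjusted p = 0.192). In that setting 18.4% of all genes passed.

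Of 20 Smad genes and Smad regulators, 0 passed, while an unadjusted p under 0.05 was found for 2 higher and 0 lower gene means (10.0%, against 17.1% of all genes). The median difference was -0.03. Smad3, which carries the signal to target genes, read 9.66, 10.58 and 10.55 on the NFAT1 shRNA arrays, against 9.02, 9.65 and 9.40 on the control arrays. NFAT1 shRNA 1 exceeded the highest control only narrowly, and the difference was 0.91 ± 0.28 (SE) or 1.88-fold (limma adjusted p = 0.217). With the mean of all Smad3 probe sets it was 0.53 (limma adjusted p = 0.149). The Smad co-repressor gene Ski differed by 0.41 (limma adjusted p = 0.267) and Tgif2, the relative of Tgif1, by 0.51 (limma adjusted p = 0.405). Smad3, Ski and Tgif2 passed with limma without NFAT1 shRNA 1 (adjusted p = 0.00953, 0.0101 and 0.00921). Strap, whose product binds the receptors and Smad7, differed by -0.37 and passed in that setting at -0.60 (limma adjusted p = 0.0297). The deubiquitinase gene Usp15 differed by -0.34 and the ubiquitin ligase gene Rnf111 by -0.18. The inhibitory Smad7, a feedback gene like Pmepa1 that was named after its values were seen, read 9.13, 8.71 and 8.99 on the NFAT1 shRNA arrays, against 9.26, 9.01 and 9.08 on the control arrays. Its groups overlapped, with a difference of -0.17 (limma adjusted p = 0.516).

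Of 22 other TGF-beta target genes, 0 passed, while an unadjusted p under 0.05 was found for 1 higher and 4 lower gene means (22.7%, against 17.1% of all genes). The median difference was 0.02. Postn, which encodes the matrix protein periostin, had the largest difference, with 5.69, 5.63 and 7.75 on the NFAT1 shRNA arrays, against 9.27, 8.75 and 9.05 on the control arrays. All NFAT1 shRNA arrays were below all controls, NFAT1 shRNA 3 the least, and the difference was -2.66 ± 0.56 (SE, limma adjusted p = 0.126). Ccn2, which encodes a matricellular growth factor, read 11.40, 8.56 and 11.11 on the NFAT1 shRNA arrays, against 12.38, 12.02 and 12.29 on the control arrays (difference -1.87, limma adjusted p = 0.269). NFAT1 shRNA 2 stood far below the other 2 there, and without it the difference was -0.98 (limma adjusted p = 0.148). Ccn2 passed with array weights (-2.44, limma adjusted p = 0.0259), and without NFAT1 shRNA 1 it differed by -2.40 (limma adjusted p = 0.0525). Id1, an inhibitor of differentiation factors, differed by -0.74 (limma adjusted p = 0.219) and passed with array weights (-0.78, limma adjusted p = 0.0380). Hmga2, a chromatin protein gene induced by TGF-beta during epithelial to mesenchymal change, read 11.44, 11.17 and 11.06 on the NFAT1 shRNA arrays, against 10.58, 10.23 and 10.40 on the control arrays. Its groups did not overlap, and the difference was 0.82 ± 0.14 (SE, limma adjusted p = 0.0714). The cell cycle inhibitor gene Cdkn1a differed by 0.59 (limma adjusted p = 0.420), with NFAT1 shRNA 3 at 7.38 below the controls. The early TGF-beta response gene Klf10 differed by 0.34 (limma adjusted p = 0.297). Hmga2, Klf10 and Postn passed with limma without NFAT1 shRNA 1 (adjusted p = 0.0139, 0.0359 and 0.0351). They also passed with array weights (limma adjusted p = 0.00968, 0.0350 and 0.0124). In these 2 settings 18.4% and 18.6% of all genes passed. Postn passed without NFAT1 shRNA 3 too (-3.36, limma adjusted p = 0.0168), where 0.363% of all genes passed.

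**Figure D5:**
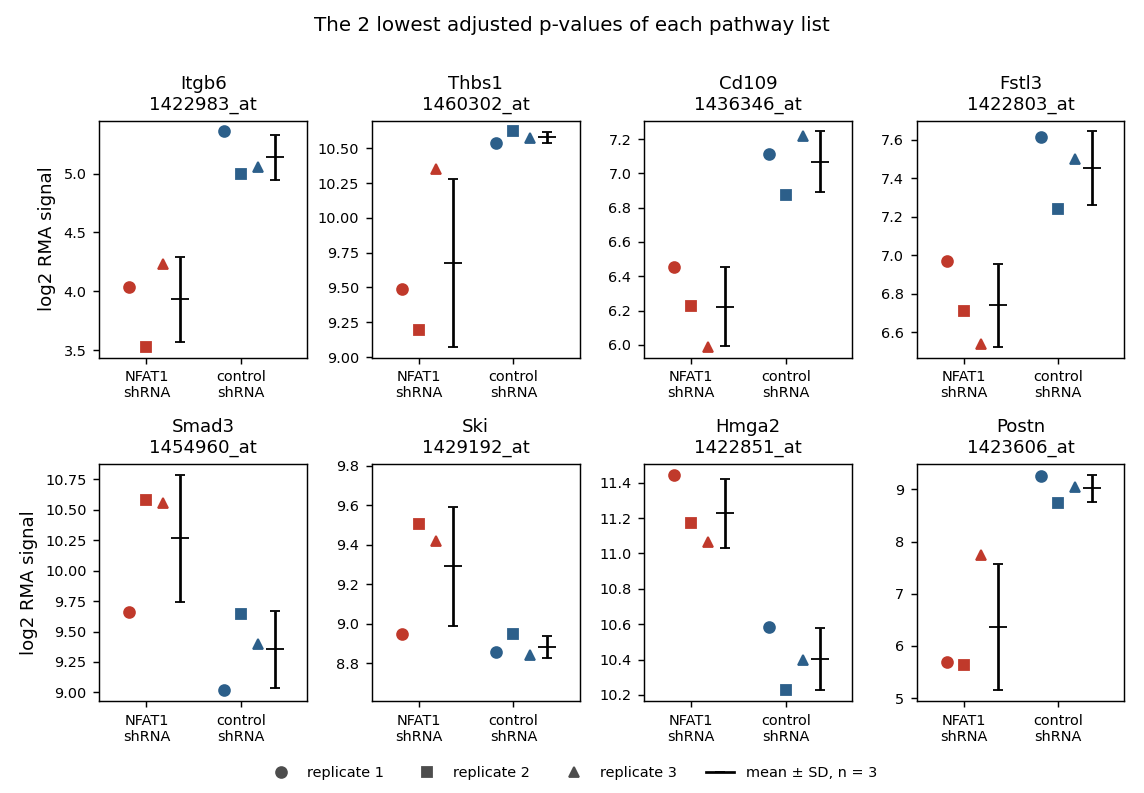
Log2 RMA signal on each array for the 2 genes with the lowest adjusted p in each of the 4 pathway lists, NFAT1 shRNA (red, left) and control shRNA (blue, right), with replicate symbols and the mean ± SD (n = 3). All 8 genes have separate groups, Ski by a narrow margin, but picking genes by low adjusted p favours such a separation, so it is no result of its own. NFAT1 shRNA 3 lies nearest to the controls for Thbs1 and Postn.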

How the data were processed

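Affymetrix arrays gave one expression profile for each of 6 samples, and the labels gave their groups and replicate numbers. Deposited values are on a log2 scale, processed by the authors with RMA according to the submitters' processing notes (version not given in the sources used here). This method corrects background, quantile-normalizes and summarises probes, so a shift of most transcripts would be hidden. Symbols came from the platform annotation, where 34945 of 45037 probe sets had exactly 1. Promoter sequences are RefSeq's for GRCm38.p6.

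Members were tested by probe set and pathway genes on the probe set with the highest mean, using limma 3.58.1 (lmFit, eBayes; R 4.3.3) with no covariate and no filter on dim values. P-values are 2-sided, adjusted by Benjamini-Hochberg over the whole table, and passing means an adjusted p under 0.05. The fit was tested on simulated data with known differences and independent noise of equal spread on all arrays. That setting lacks the likeness between arrays described above, so it cannot show how the fit does under it. Members, lists and tests were chosen with earlier results of these data known. The rule for naming pathway genes took those that passed and, in each list, the 3 highest and 3 lowest differences among genes with a higher group mean of at least 6; for likeness it took 4 genes for each of the 3 members of widest range, at that same mean and skipping predicted genes. Alternatives were filters, scalings, variance priors, array weights, a replicate block, arrays left out, and other choices of probe sets. Precision is limited by the number of arrays.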

Additional observations from a re-analysis of the deposited data

How the results depend on the processing

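Of the 25 member probe sets 0 passed under filters on dim signals, which kept 19 and 13 of them. The count was also 0 under both other scalings and a trended and robust prior. Without probe sets ending in _s_at, _x_at or _a_at, 0 of the 16 kept passed, and the only Tgif1 probe set was left out. The count moved with array weights (1 lower), and with the replicate block (1 higher, Tgfb3 at 0.76, limma adjusted p = 0.0325), against 3.18% of all probe sets. Leaving out single arrays gave 0 to 1 higher and 0 to 2 lower, and 1 to 7 with an unadjusted p under 0.05. Those that passed did so only without NFAT1 shRNA 1. Without control 3 and NFAT1 shRNA 1 together 0 member probe sets and 0 pathway genes passed with limma, with 5 and 18 at an unadjusted p under 0.05. Of the 69 pathway genes, 6 were higher and 12 lower with array weights (26 with an unadjusted p under 0.05), and 3 higher (Hmga2, Ltbp3, Smad3) and 6 lower (Cd109, Fst, Fstl3, Inhba, Itgb6, Postn) with the replicate block, against 4.35% of all genes. Nfatc2 1439205_at also passed with the block (limma adjusted p = 0.0228). Leaving out single arrays gave 0 to 7 higher and 0 to 8 lower, and 10 to 23 with an unadjusted p under 0.05. No scaling moved the median of all probe sets by over 0.1. The replicate numbers were not taken to pair the samples, and these values could not settle whether they do. Deviations of same-numbered arrays from their group means correlated at 0.692, 0.535 and -0.042 over genes. Those of control 3 correlated near 0 with NFAT1 shRNA 1, 2 and 3 (0.020, 0.015 and -0.042), so the last pair is not informative. Those of NFAT1 shRNA 3 correlated at 0.465 with control 2.

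The sign turned for small differences, none with a limma adjusted p under 0.05 there. Leaving out single arrays gave these lowest and highest differences: Tgfb2 -0.88 to 0.045 (1423250_a_at), -0.32 to 0.12 (1438303_at) and -0.88 to 0.16 (1450923_at), positive without NFAT1 shRNA 2; Tgfbr3 1433795_at -0.34 to 0.73, negative without NFAT1 shRNA 3 and without control 1 (-0.19). Pmepa1 1452295_at gave -0.22 to 0.044, Skil 1452214_at -0.25 to 0.089 and Tgfbi 1437463_x_at -0.075 to 0.072, positive without NFAT1 shRNA 1, and without it and control 3 together they gave 0.060, 0.090 and 0.066. Tgfbi 1437463_x_at also turned with array weights (0.021) and without control 1 (0.020). Tgfbr1 1420894_at gave -0.0030 to 0.12, negative without control 3. Tgfbr2 1422019_at gave -0.096 to 0.064, positive without NFAT1 shRNA 2, without controls 1 (0.027) and 2 (0.0030) and with array weights (0.0089). Ltbp2 gave -0.43 to 0.093, positive without NFAT1 shRNA 1 and with control 3 left out too (0.13). Ltbp4 gave -0.083 to 0.54, negative without NFAT1 shRNA 3, and Vasn -0.035 to 0.68, negative without NFAT1 shRNA 2. Acvr1b gave -0.074 to 0.48, negative without NFAT1 shRNA 2 and without control 1 (-0.042), and Nfatc2 1425901_at -0.00016 to 0.081, negative without control 2. Apart from the arrays left out, the cause of these changes was not tested. Signals near or under the array medians limit what can be read for Tgfbi, Itgb6, Fst and the dimmer probe sets of Tgfb2, Tgfbr1 and Tgfbr3.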
